A study of Mus musculus with 6 samples.

Results

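The retinoid genes described here are 9 genes that make, clear, carry or sense retinoic acid, chosen by name from 33276 genes in a table of raw read counts. They are the retinol dehydrogenase Rdh10, the retinaldehyde dehydrogenases Aldh1a1, Aldh1a2 and Aldh1a3, the retinoic acid hydroxylase Cyp26b1, the binding proteins Rbp4 and Crabp1, and the receptors Rara and Rarb. RNA-seq was done on fibroadipogenic progenitors (FAPs), mesenchymal cells of the muscle interstitium, from mice with middle cerebral artery occlusion (MCAO), a stroke model. The circulating group is 3 libraries of FAPs from peripheral blood, and the muscle group is 3 libraries of FAPs from muscle. Both groups carry the occlusion. The background strain, age, sex, time after occlusion, muscle sampled and sorting markers are not given in the sources used here, and nor is whether animals were pooled.

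Vitamin A travels in blood as retinol bound to RBP4. Inside a cell RDH10 oxidises retinol to retinaldehyde, and the ALDH1A enzymes oxidise retinaldehyde irreversibly to retinoic acid. Retinoic acid enters the nucleus, binds the RAR receptors paired with RXR on DNA, and switches on target genes, while CYP26 enzymes clear it. Mesenchymal cells of many organs express ALDH1A enzymes, and retinoic acid signalling is known to restrain adipogenic differentiation.

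The RefSeq promoter table (GRCm38.p6, 250 bases before to 50 after a start site) held 12 promoters for 7 of the 9 genes. Aldh1a3 and Rdh10 had none. The promoters were searched on both strands for direct repeats of the consensus half-site AGGTCA or its variants AGTTCA, also GGGTCA, also GGTTCA, spaced by 1, 2 or 5 bases (DR1, DR2 and DR5), the layout that RAR and RXR pairs bind. Of the 12 promoters, 1 held such a repeat, the DR5 of Rarb from base -53 to base -37 before its start site. A DR5 was found in 0.0974% of all 32851 promoters of the same length, a DR1 in 0.222% and a DR2 in 0.268%. The Rarb promoter (chr14:16575427-16575726, minus strand) is shown for this repeat, whose bases are in capitals, since Rarb is the classical target of its own ligand. The Rbp4 promoter (chr19:38124762-38125061, minus strand) is shown beside it because Rbp4 differed most between the groups. Its capitals mark a TATAAA from base -28 to base -23, a motif found on either strand in 13.6% of all promoters, and no DR1, DR2 or DR5 was found in this window.
Rarb: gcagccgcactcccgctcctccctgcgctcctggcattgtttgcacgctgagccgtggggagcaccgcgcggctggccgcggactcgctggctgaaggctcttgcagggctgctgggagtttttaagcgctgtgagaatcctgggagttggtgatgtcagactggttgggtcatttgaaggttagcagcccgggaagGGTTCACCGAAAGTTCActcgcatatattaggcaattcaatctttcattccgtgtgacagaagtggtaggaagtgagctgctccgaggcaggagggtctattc
Rbp4: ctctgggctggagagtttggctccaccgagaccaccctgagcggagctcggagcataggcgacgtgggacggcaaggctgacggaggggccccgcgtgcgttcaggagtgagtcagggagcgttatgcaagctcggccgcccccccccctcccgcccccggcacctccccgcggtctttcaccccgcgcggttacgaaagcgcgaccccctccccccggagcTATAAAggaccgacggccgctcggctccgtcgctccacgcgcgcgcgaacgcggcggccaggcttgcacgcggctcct

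The libraries held 5522193 to 13813329 counts in the circulating group and 17532558 to 23424039 in the muscle group. Rows for 18S ribosomal RNA, listed under 2 symbols with identical counts, together took 42.9% to 60.1% and 27.8% to 32.3% of these. Both rows are in the totals, so the totals and the 18S shares would be lower with 1 row. The FAP markers Pdgfra, Ly6a, Cd34, Dcn, Lum, Col1a1, Col3a1, Gsn, Pi16 and Dpp4 all had reads in the 6 libraries. They summed to 26662 to 28335 CPM (counts per 1000000 counts of the TMM-scaled library) in circulating and 57076 to 67867 CPM in muscle libraries. Gsn, Dcn and Col3a1 made up most of these sums, while Dpp4 (142 and 29.7 CPM on average) and Pi16 (823 and 297 CPM) had higher means in circulating libraries. Leukocyte markers summed to 94.4 to 122 CPM in circulating and 16.9 to 33.3 CPM in muscle libraries (10 of 10 genes with reads in every library). Pericyte and smooth muscle markers summed to 39.8 to 51.8 CPM and 55.0 to 137 CPM (6 of 6 genes). Among them Rgs5 (5.20 and 41.5 CPM on average), Kcnj8, Abcc9 and Notch3 had lower means in circulating libraries. Myh11 (13.2 and 3.66 CPM) and Acta2 (13.3 and 7.36 CPM) had higher means there. None of these sums passed after adjustment over 14 marker lists (two-sided exact permutation test, p = 0.1, the smallest 3 against 3 allows, adjusted p = 0.28). Genes of vomeronasal, taste and trace amine receptors were taken as silent in these cells, which was not tested. They gave a median of 0.833 to 1.28 reads per kilobase of exon per 1000000 reads without 18S in circulating libraries. In muscle libraries this background was 0.279 to 0.442. The part that cell mixture, depth and background have in the differences below was not tested.

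Of the 9 genes, 8 passed the filter on low counts, and none of these passed the test between the groups in edgeR (quasi-likelihood F test, TMM scaling, adjusted p under 0.05), as against 0.109% of the 20248 genes tested. At an unadjusted p under 0.05, Rbp4 was lower and Aldh1a3 higher in circulating FAPs, where 9.64% of all genes tested were lower and 9.71% higher. Of the 4736 tested genes of at least 20 CPM, 1033 were lower and 59 higher at that threshold. DESeq2 called 1 of the 9, Rbp4, as lower, and gave no adjusted p for Rarb and Crabp1. It called 11.4% of the genes it tested in either direction, 1387 of these 1542 genes as lower. Log2 fold changes, circulating minus muscle, were negative for 6 and positive for 2 of the 8 genes, with a median of -0.53 against 0.15 for all genes tested and -0.65 for genes of at least 20 CPM. With scaling computed on those abundant genes, the median over all tested genes was 0.70 higher, and the sign of Rdh10, Aldh1a1 and Cyp26b1 turned positive with it. No label says whether the 3 libraries of a group are from different animals, so the tests rest on a spread between libraries that may be technical.

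**Figure D1:**
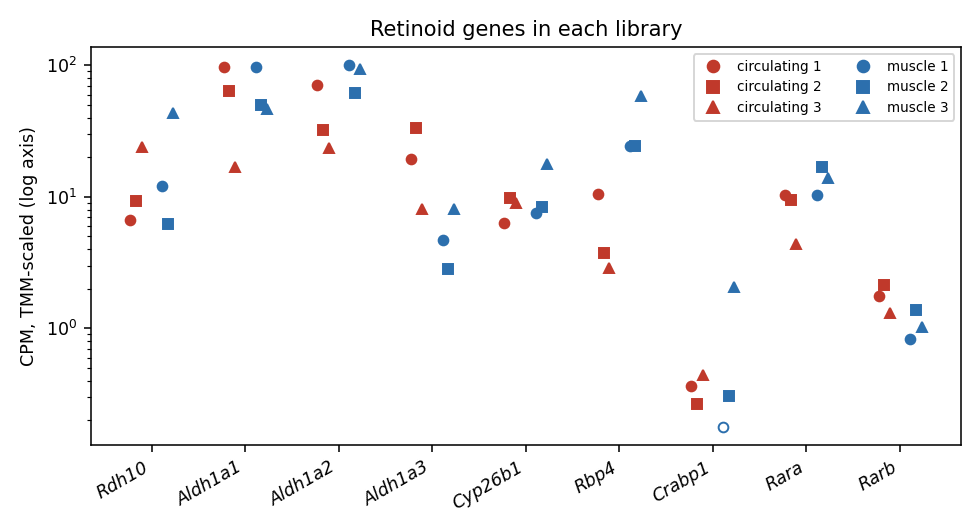
Level of each of the 9 genes in each library, in CPM of the TMM-scaled library size on a log axis; red symbols are circulating and blue symbols muscle libraries, the shape gives the replicate number, and the open symbol is a library with 0 reads drawn at the level of 3 counts. Rbp4 lies lower in each circulating library than in each muscle library, and Aldh1a3 reaches 33.1 CPM in circulating replicate 2.

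The carrier Rbp4 differed most between the groups. Circulating replicates 1, 2 and 3 had 10.4, 3.73 and 2.85 CPM, and muscle replicates 1, 2 and 3 had 24.4, 24.3 and 58.1 CPM. The lowest muscle library was thus above the highest circulating library. The means were 5.67 ± 4.15 and 35.6 ± 19.5 CPM (SD, n = 3). On the log2 scale the fold change was -2.64 ± 0.77 (SE), with a 95% interval from -4.36 to -0.92. It missed the threshold in edgeR (adjusted p = 0.169) and passed in DESeq2 (log2 fold change -2.84, adjusted p = 0.00204). Over the 14 other settings tried, adjusted p ran from 0.00204 to 0.328 and the log2 fold change stayed between -3.50 (circulating replicate 1 left out) and -1.96 (abundant-gene scaling). Rbp4 is best known as a product of liver and fat. Hepatocyte markers (3 of 5 with reads in every library) summed to 7.59 to 9.22 CPM in circulating and 4.25 to 5.38 CPM in muscle libraries, and adipocyte markers (4 of 5) to 3.18 to 4.96 and 2.25 to 3.45 CPM. Single hepatocyte markers had group means of at most 3.12 CPM (Alb), and adipocyte markers of at most 1.18 CPM (Adipoq). These sums were not set against the silent-gene background, which was higher in circulating libraries. The part of hepatocytes or adipocytes in the Rbp4 values was not tested. In bulk samples fewer cells that express a gene and less RNA per cell cannot be told apart.

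Crabp1, which holds retinoic acid in the cytosol, was barely detected. It had 5, 2 and 4 reads in circulating replicates 1, 2 and 3, and 0, 6 and 42 reads in muscle replicates 1, 2 and 3. Only muscle replicate 3, at 2.05 CPM, stood clear of the background of silent genes (11.8 times). The 0 reads of muscle replicate 1 allow a level of up to 0.179 CPM by the 3-count limit, which covers counting error only. Crabp1 did not pass the filter and was not tested.

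Rdh10, which makes the retinaldehyde that ALDH1A enzymes use, varied more within the groups than between them. Circulating replicates 1, 2 and 3 had 6.71, 9.32 and 24.0 CPM, and muscle replicates 1, 2 and 3 had 12.01, 6.19 and 43.2 CPM. The groups overlapped throughout, with both ends of the range in muscle libraries. The log2 fold change was -0.62 ± 0.86 (95% interval -2.52 to 1.28, adjusted p = 0.692 in edgeR), and 0.49 without muscle replicate 3.

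Per kilobase, Aldh1a1 and Aldh1a2 had the highest means of the 5 enzymes in both groups. Aldh1a1 had 96.8, 63.3 and 16.8 CPM in circulating replicates 1, 2 and 3 and 96.5, 49.8 and 46.4 CPM in muscle replicates 1, 2 and 3. The highest circulating and the highest muscle library were nearly equal, and circulating replicate 3, the library with 60.1% 18S over both rows, was the lowest of all 6. The log2 fold change was -0.12 ± 0.66 (95% interval -1.58 to 1.34, adjusted p = 0.925), and it was 0.20 without circulating replicate 3. Aldh1a2, the main enzyme of the embryo, had 70.5, 32.5 and 23.6 CPM in circulating and 99.8, 61.7 and 93.6 CPM in muscle replicates 1, 2 and 3. Only circulating replicate 1 exceeded the lowest muscle library. The log2 fold change of Aldh1a2 was -1.01 ± 0.56 (95% interval -2.24 to 0.22, adjusted p = 0.330). Leaving out circulating replicate 1 made it -1.67. Upper quartile scaling gave -0.35, and abundant-gene scaling gave -0.32. Aldh1a2 also marks mesothelium, and 4 of 5 mesothelial markers had reads in every library. The 5 summed to 5.55 to 7.32 CPM in circulating and 2.20 to 3.76 CPM in muscle libraries. Each had a group mean of at most 2.32 CPM (Wt1), and the sums were not set against the silent-gene background. The part of mesothelial cells in the Aldh1a2 values was not tested.

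Aldh1a3 had the opposite sign. It had 19.3, 33.1 and 8.02 CPM in circulating replicates 1, 2 and 3 and 4.72, 2.84 and 8.12 CPM in muscle replicates 1, 2 and 3. Circulating replicate 3 and muscle replicate 3 were level, and the other circulating libraries were above all muscle libraries. The means were 20.2 ± 12.6 and 5.23 ± 2.67 CPM, with a log2 fold change of 1.94 ± 0.77 (95% interval 0.25 to 3.64). It missed the threshold in edgeR (adjusted p = 0.219) and in DESeq2 (adjusted p = 0.0847), and its sign was positive in all 14 other settings, between 1.28 (circulating replicate 2 left out) and 2.76 (abundant-gene scaling).

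**Figure D2:**
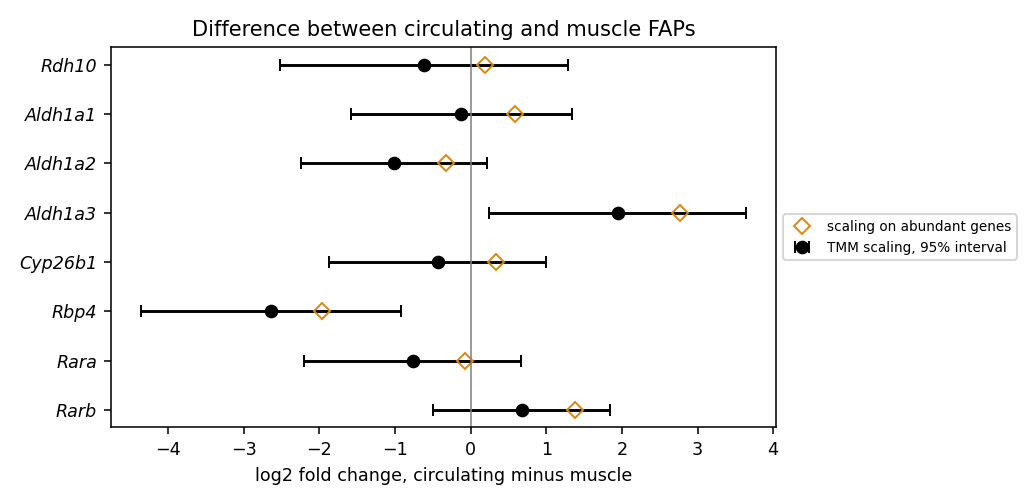
Log2 fold change, circulating minus muscle, of the 8 genes tested; black points and bars are edgeR with TMM scaling and its 95% intervals, and open diamonds are the values with scaling on abundant genes. The intervals of Rbp4 and Aldh1a3 leave out 0, and those of the other 6 genes include it; none is corrected for the number of genes tested.

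Because shares within a library do not depend on scaling between libraries, the enzymes were also set against each other, as reads per kilobase of exon. Exon lengths were merged over all transcripts, 4937, 2264 and 4617 bases for Aldh1a1, Aldh1a2 and Aldh1a3. Their longest coding transcripts have 2358, 2264 and 3443 bases, and those lengths would raise the Aldh1a1 share. In raw reads Aldh1a1 exceeded Aldh1a2 in circulating replicates 1 (1327 and 966) and 2 (476 and 244). Aldh1a2 had more reads in the other libraries. Of the summed level of Aldh1a1, Aldh1a2 and Aldh1a3, Aldh1a3 held 7.62%, 20.9% and 11.2% in circulating replicates 1, 2 and 3 and 1.58%, 1.62% and 3.35% in muscle replicates 1, 2 and 3. Every circulating library had a larger share than every muscle library, at means of 13.2% ± 6.87 and 2.18% ± 1.01 (SD, n = 3). Aldh1a2 held 55.1% ± 12.7 in circulating and 72.9% ± 5.37 in muscle libraries, with 67.0% in circulating replicate 3 just under the lowest muscle share of 68.2%. Aldh1a1 held 31.6% ± 8.51 and 24.9% ± 6.33, and the groups overlapped. With the silent-gene background subtracted, the Aldh1a3 means were 12.1% ± 7.15 and 1.68% ± 1.13, and the groups still did not overlap. The Aldh1a2 shares did overlap after that subtraction, with 70.0% in circulating replicate 3 and 68.6% in muscle replicate 1. These shares are a description with no test, taken after the values of the single genes were known.

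**Figure D3:**
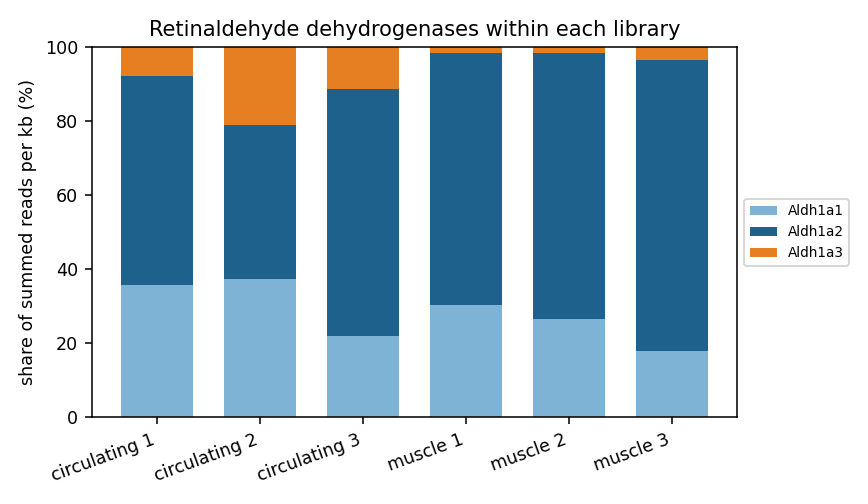
Share of Aldh1a1, Aldh1a2 and Aldh1a3 in their summed reads per kilobase of exon, in percent, in each library. With the merged exon lengths used, Aldh1a2 is the largest part in all 6 bars. The Aldh1a3 part is 7.62% to 20.9% in the circulating and 1.58% to 3.35% in the muscle libraries.

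The summed level of the 3 enzymes was 95.5, 83.1 and 33.5 reads per kilobase per 1000000 reads without 18S in circulating replicates 1, 2 and 3. It was 82.4, 59.1 and 67.7 in muscle replicates 1, 2 and 3, inside the circulating range. Aldh1a1 and its rodent relative Aldh1a7 share 89.5% of the bases over 2017 aligned bases of their longest coding transcripts, with identical stretches of up to 100 bases, so reads could be split between them. Aldh1a7 had 1.15 to 2.07 CPM on average in the groups against 59.0 and 64.2 CPM for Aldh1a1. Aldh1a1, Aldh1a2 and Aldh1a3 share 64.3% to 66.4% of the bases with each other, with identical stretches of at most 26 bases. Aldh8a1, a more distant aldehyde dehydrogenase, had 2.70, 3.19 and 1.98 CPM in circulating and 1.02, 2.28 and 0.782 CPM in muscle replicates 1, 2 and 3 (0.94 ± 0.57, adjusted p = 0.369 in edgeR).

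Cyp26b1, which hydroxylates retinoic acid for clearance, had 6.28, 9.72 and 9.004 CPM in circulating replicates 1, 2 and 3 and 7.59, 8.38 and 17.8 CPM in muscle replicates 1, 2 and 3. The groups overlapped, and muscle replicate 3 was highest, as for Rdh10, Rbp4 and Crabp1. The log2 fold change was -0.44 ± 0.65 (95% interval -1.87 to 0.99, adjusted p = 0.711). The ratio of the summed Aldh1a level to the Cyp26b1 level, both per kilobase, was 46.9, 18.9 and 9.25 in circulating and 45.6, 24.3 and 15.7 in muscle replicates 1, 2 and 3. Synthesis and clearance transcripts thus stood in overlapping ratios in both groups. Cyp26a1 and Cyp26c1, the other clearance enzymes, had at most 0.558 CPM in any library and were not tested.

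Rara, the most widely expressed of the retinoic acid receptors, had 10.4, 9.45 and 4.39 CPM in circulating replicates 1, 2 and 3 and 10.4, 16.9 and 13.9 CPM in muscle replicates 1, 2 and 3. The highest circulating and the lowest muscle library were practically equal (10.362 and 10.395 CPM). The log2 fold change was -0.77 ± 0.65 (95% interval -2.20 to 0.67, adjusted p = 0.506), or -0.08 with scaling on abundant genes. Rarb had 1.75, 2.13 and 1.32 CPM in circulating and 0.836, 1.37 and 1.03 CPM in muscle replicates 1, 2 and 3, from 12 to 27 reads a library. Its log2 fold change was 0.67 ± 0.53 (95% interval -0.50 to 1.85, adjusted p = 0.474), or 1.37 with scaling on abundant genes. Per kilobase, Rarb lay under the background of silent genes in all 6 libraries, at 0.590 to 0.916 times its level. Rarb, whose promoter with the DR5 is printed above, thus did not rise above this median background in either group. The spread of the silent genes was not used, so no detection limit was set. An exon of Rarb overlaps one of Top2b on the opposite strand in the GENCODE M21 annotation, and the strand setting of the counting is not given in the sources used here, so its reads are uncertain.

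**Figure D4:**
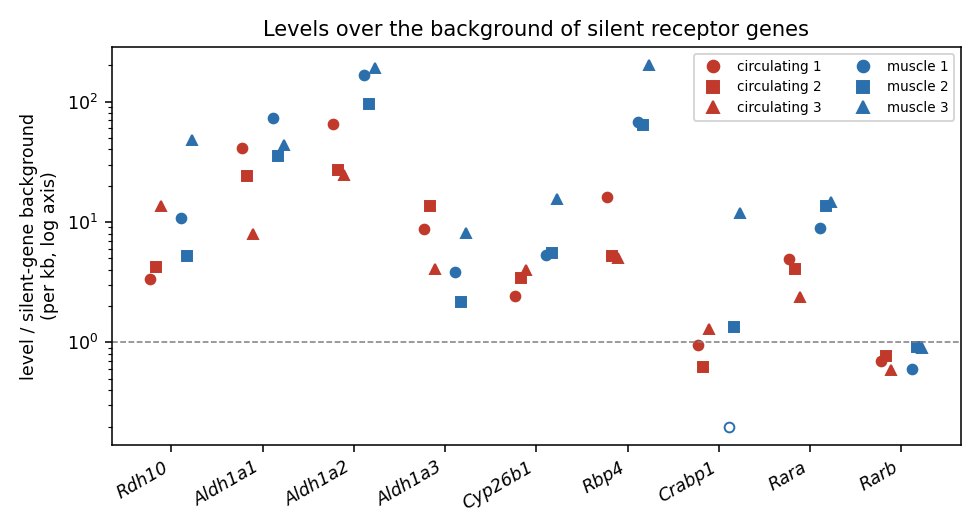
Reads per kilobase of exon of each gene divided by the median of silent receptor genes in the same library, on a log axis; the dashed line is the background itself, and the open symbol at the bottom is a library with 0 reads. Rarb lies under the line in all 6 libraries, and Aldh1a2 is at 24.6 to 191 times background.

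Counting genes whose groups did not overlap in CPM, 2 of the 8 tested were lower in each circulating library (Rbp4 and, narrowly, Rara, whose groups overlapped per kilobase) and none was higher. Of all tested genes, 11.4% were lower without overlap and 16.2% higher. Of the 4736 tested genes of at least 20 CPM, 1363 were lower without overlap and 79 higher. Ordered by mean reads per kilobase, muscle libraries gave Aldh1a2 (50.6 ± 7.26), Rbp4 (35.7 ± 17.6), Aldh1a1 (17.6 ± 6.59), Rdh10 (6.46 ± 6.04), Rara (4.39 ± 1.52), Cyp26b1 (2.85 ± 1.30), Aldh1a3 (1.51 ± 0.678), Crabp1 (1.30 ± 1.76) and Rarb (0.286 ± 0.106). Circulating libraries gave Aldh1a2 (37.1 ± 15.99), Aldh1a1 (24.2 ± 14.7), Aldh1a3 (9.46 ± 7.07), Rbp4 (8.27 ± 4.67), Rdh10 (6.89 ± 4.98), Rara (3.84 ± 1.56), Cyp26b1 (3.35 ± 1.20), Crabp1 (0.924 ± 0.220) and Rarb (0.698 ± 0.243). These levels are reads per kilobase of exon per 1000000 reads without 18S, and on that scale the means of Aldh1a1, Rdh10 and Cyp26b1 were higher in circulating libraries, opposite in sign to their TMM log2 fold changes. Neighbours in these orders overlapped between libraries in 8 of 8 pairs in muscle and in 7 of 8 in circulating libraries, where Cyp26b1 lay clear of Crabp1. Both orders rest on the merged exon lengths.

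Among pairs of the tested members, the log2 CPM of Rbp4 and Aldh1a2 had the highest correlation across the 6 libraries (Pearson r = 0.91). Rdh10 and Cyp26b1 came next (r = 0.81), and Rbp4 and Rarb had the lowest r (-0.65). All are over points that share library and depth. Among 4684 or 4685 other genes of at least 20 CPM, those most like Rbp4 in pattern were Litaf (r = 0.998) and Atp5pb (r = 0.996), and those most like Aldh1a2 were Eif6 and Hpcal1 (r = 0.997 and 0.996). For Aldh1a3 the likest were Tmem14c (r = 0.943) and Rab11fip2 (r = 0.939), for Aldh1a1 Sh3gl1 (r = 0.972) and Kpna4 (r = 0.970), for Rdh10 Rnf220 (r = 0.981) and Hace1 (r = 0.968), and for Rara Aldh7a1 (r = 0.991) and Fmo2 (r = 0.987). These correlations are descriptions over 6 libraries, each the highest among the genes searched.

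Of 62 other genes of the retinoid pathway, 57 were tested, and none passed in edgeR. At an unadjusted p under 0.05, 5 were higher and 9 lower, where 9.71% and 9.64% of all genes tested were. Among the 4736 tested genes of at least 20 CPM, 59 were higher and 1033 lower at that threshold. DESeq2 called 4 as lower and none as higher, against 11.4% of the genes it tested in either direction. Of its 1542 calls over all genes, 1387 were lower. The log2 fold changes were negative for 30 and positive for 27, with a median of -0.12, which became 0.51 with scaling on abundant genes, where 17 were negative. Of all 20248 genes tested, 9211 were negative, and of the 4736 genes of at least 20 CPM, 3709 were.

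In uptake and storage, 8 of 10 genes had positive log2 fold changes, as did 11037 of all 20248 genes tested. Among the positive genes Stra6, Stra6l, Rbp2, Rbp7, Ttr and Lrat, named after their values were seen, had group means of at most 4.14 CPM. Lrat lay at 0.843 to 1.88 times the silent-gene background per kilobase. Dgat1, which can esterify retinol besides making triglyceride, was higher in circulating libraries without overlap, at 66.8 ± 22.0 and 19.4 ± 9.37 CPM (1.79 ± 0.59, adjusted p = 0.184). The carboxylesterase Ces1d was at 57.2 ± 47.9 and 46.5 ± 5.26 CPM, with 5.93 CPM in circulating replicate 3, the library that was also lowest for Aldh1a1. The RBP4 receptor Stra6 had 2.53 ± 1.11 and 2.10 ± 0.39 CPM, at 0.621 to 1.55 times the silent-gene background per kilobase.

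Among the 17 tested oxidoreductases of retinol and retinaldehyde, 7 had negative and 10 positive log2 fold changes. The alcohol dehydrogenase Adh1 was the most abundant of the 62 genes, at 52.8, 13.6 and 133 CPM in circulating replicates 1, 2 and 3 and 210, 150 and 166 CPM in muscle replicates 1, 2 and 3. Each circulating library was below each muscle library (-1.40 ± 0.68, adjusted p = 0.286). Rdh14 was at 6.08 ± 3.09 and 25.1 ± 10.4 CPM without overlap and passed in DESeq2 (adjusted p = 0.00993; 0.195 in edgeR). Dhrs3, which turns retinaldehyde back to retinol, was at 33.0 ± 31.3 and 29.6 ± 24.2 CPM and ranged from 4.28 CPM in circulating replicate 3 to 66.3 CPM in circulating replicate 1. Rdh5, named after its values were seen, was at 1.71 ± 0.75 and 10.9 ± 5.94 CPM, passed in DESeq2 (adjusted p = 0.00234; 0.154 in edgeR), and lay at 0.716 to 2.12 times background in circulating libraries.

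The intracellular binding proteins Crabp2 and Fabp5, which carry retinoic acid to nuclear receptors, both had negative log2 fold changes. Crabp2 had 0, 4.79 and 0.769 CPM in circulating replicates 1, 2 and 3 and 12.2, 9.95 and 4.60 CPM in muscle replicates 1, 2 and 3 (-2.30 ± 1.20, adjusted p = 0.310), with circulating replicate 2 above muscle replicate 3. The 0 reads in circulating replicate 1 allow up to 0.219 CPM by the 3-count limit. Fabp5 was at 0.827 ± 0.258 and 3.17 ± 2.05 CPM (-1.94 ± 0.66, adjusted p = 0.189), and its circulating libraries lay under the background. Both log2 fold changes kept their sign with scaling on abundant genes, at -1.44 and -1.29.

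Of the 4 other receptors, the 3 most abundant, Rxra, Rarg and Rxrb, had log2 fold changes of -0.52 ± 0.72, -0.22 ± 0.64 and -0.37 ± 0.69. With scaling on abundant genes these were 0.21, 0.47 and 0.32. Rxrg, named after its values were seen, was higher in circulating libraries without overlap in CPM, at 1.72 ± 0.63 and 0.53 ± 0.43 CPM. Its log2 fold change was 1.67 ± 0.83 (adjusted p = 0.293 in edgeR). Per kilobase Rxrg lay at 0.0777 to 1.92 times the silent-gene background. Rarg was at 10.9 ± 4.11 and 12.8 ± 3.89 CPM, and Rxra at 13.7 ± 6.53 and 19.7 ± 12.03 CPM. Among 9 coregulators, 6 had negative log2 fold changes, which became 4 with scaling on abundant genes. The 3 most abundant were the corepressor Ncor1 (-0.69 ± 0.47, adjusted p = 0.414), the acetyltransferase Crebbp (-1.27 ± 0.48, adjusted p = 0.211) and Nrip1, which is itself induced by retinoic acid (-0.78 ± 0.59, adjusted p = 0.458). With scaling on abundant genes Crebbp was at -0.53, Nrip1 at -0.13 and Ncor1 at 0.00061.

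Of 13 tested genes that retinoic acid is known to induce, 10 had negative and 3 positive log2 fold changes. With scaling on abundant genes 5 were negative and 8 positive. Among all 20248 genes tested 9211 were negative, or 5276 with that scaling. Among the 4736 genes of at least 20 CPM these counts were 3709 and 2220. The most abundant of the 13, Ret, Tshz1 and Tgm2, had -0.37 ± 0.68, -0.24 ± 0.73 and -0.12 ± 0.73, each turning positive with scaling on abundant genes. The nuclear receptors Nr2f1 and Nr2f2, named after their values were seen, passed in DESeq2 as lower. Nr2f1 was at 2.04 ± 1.67 in circulating and 28.6 ± 33.8 CPM in muscle libraries (DESeq2 adjusted p = 0.00157; 0.169 in edgeR), with 67.4 CPM in muscle replicate 1. Nr2f2 was at 5.47 ± 1.52 and 18.3 ± 4.79 CPM (DESeq2 adjusted p = 0.0100; 0.208 in edgeR). In circulating libraries both lay within 0.198 to 1.78 times the silent-gene background per kilobase.

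**Figure D5:**
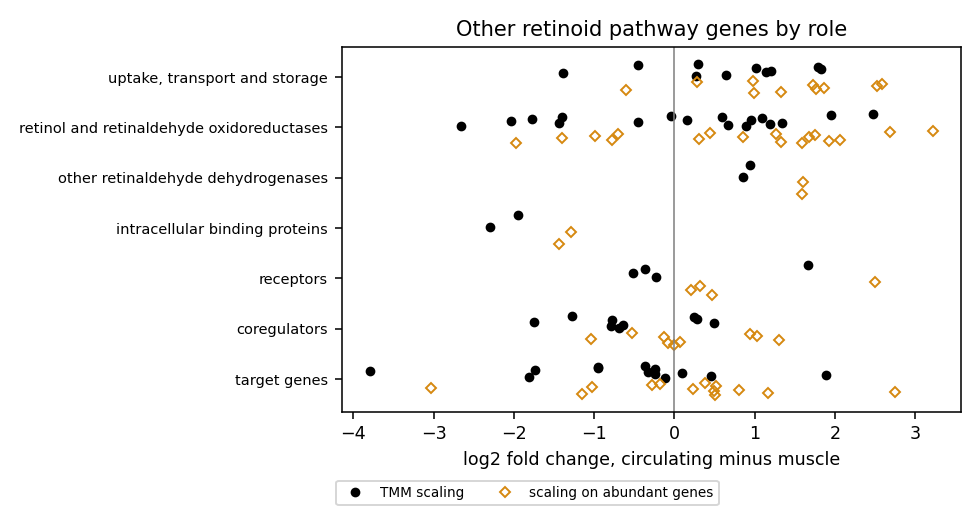
Log2 fold change, circulating minus muscle, of the 57 other tested retinoid pathway genes, in rows by role; black points are TMM scaling and open diamonds the same genes with scaling on abundant genes, offset downwards, with the vertical spread within a row only for legibility. Both binding proteins lie left of 0 under both scalings, and genes of the other roles with more than 2 members lie on both sides of 0 with TMM scaling.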

How the data were processed

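RNA-seq was done on 3 circulating and 3 muscle FAP libraries. Whole-number read counts, listed by gene symbol, are what the authors deposited, with no scaling. The tools named per the submitters' processing notes are featureCounts, STAR and Trim Galore, and the build is GRCm39. Versions, options and annotation are not given in the sources used here. Groups follow the sample titles.

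Differences were tested with edgeR 4.0.16 in R 4.3.3 (robust quasi-likelihood F test, filterByExpr, TMM scaling, Benjamini-Hochberg adjustment over 20248 genes, threshold 0.05), tested on simulated data. The simulated counts used dispersions fitted to these data and equal numbers of raised and lowered genes. They did not cover changes that lie mostly in the same direction, and their outcome is not reported here. CPM uses the TMM-scaled library size. Standard errors were derived from each log2 fold change and its F statistic. DESeq2 1.42.0, 4 other scalings, the table without 18S, no filter, each library left out and a replicate block were alternatives.

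Exon lengths came from GENCODE M21 (GRCm38), matched by symbol for 91.4% of symbols, and the background from 379 of 410 silent receptor genes with a length. Each length merges the exons of all transcripts of a gene, and all values per kilobase depend on it. Marker sums were compared with exact permutation tests. The 9 genes, the 62 pathway genes and the marker lists were chosen with earlier results of these data known. Pathway genes named are the 3 most abundant of each role, except that 1 item is not reported here, and any others are said to be named after their values were seen; genes alike in pattern are the 2 with the highest Pearson r for members of at least 10 CPM. By exact permutation the hepatocyte and mesothelial lists gave adjusted p = 0.28 and the adipocyte list 0.4. Marker lists not quoted in the text gave adjusted p of 0.4 to 1 (exact permutation).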

Additional observations from a re-analysis of the deposited data

How the results depend on the processing

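Over the 14 alternatives planned, Rbp4, Aldh1a2, Aldh1a3, Rara and Rarb kept the sign of their log2 fold change in 14 of 14. Rdh10 turned to 0.18 with upper quartile scaling and 0.19 with scaling on abundant genes, and ran from -1.47 to 0.49 with each library left out. Aldh1a1 turned to 0.53, 0.59 and, with library size, 0.13, and ran from -0.75 to 0.24; Cyp26b1 turned to 0.31 and 0.34 and ran from -0.72 to 0.0035. The count of members called was 1 with DESeq2 (Rbp4) and 0 in the 13 others; the count of pathway genes called was 4 with DESeq2 (Rdh5, Rdh14, Nr2f1 and Nr2f2) and 0 otherwise. Of all genes, 22 were called, which became 43 with RLE size factors, 2 with upper quartile scaling, 7 with scaling on abundant genes, 160 without the filter, 1542 with DESeq2 and 0 to 65 with each library left out (65 without circulating replicate 1, 0 without muscle replicate 3, 1 without each other library). The cause was not tested. Same-numbered libraries deviated together by r = 0.0081, 0.041 and 0.0058, and not every library correlated best with its own number, so the numbers were not taken as pairs. The replicate block left 1 gene called. Crabp1, at 0 to 42 reads a library, was too shallow to test, as were Cyp26a1 and Cyp26c1. Subtracting background from the enzyme shares was chosen after seeing the data and moved each mean by less than 1 SD.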
